A study of Mus musculus with 17 samples.

Results

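The 52 genes described here encode the machinery of cell division, from the licensing of DNA replication to the separation of the daughter cells, and they were taken by symbol from the 21798 genes of the table. They comprise 11 DNA replication genes, 4 G1/S regulators, 3 D-type cyclins, 3 cyclin-dependent kinase (CDK) inhibitors, 16 G2/M and mitotic regulators, 11 spindle, kinetochore and cytokinesis genes and 4 chromatin and proliferation markers. All 52 passed the filter on low values that left 16218 genes to test. Bulk RNA-sequencing of left ventricular apex was analysed from 17 male C57Bl6/J mice, operated at 7 to 8 weeks of age and killed 3 weeks later. The mice had either transverse aortic constriction (TAC), which narrows the aorta and loads the left ventricle with pressure, or the same operation without ligation (Sham). From 1 week after surgery they received saline vehicle (Veh) or 50 μg/kg 29P, an oral prodrug directed at the αvβ3 integrin, by gavage. There were 5 libraries of Sham Veh, 3 of Sham 29P, 3 of TAC Veh and 6 of TAC 29P, each from 1 mouse. A TAC Veh library that clustered with Sham mice was removed by the authors, which limits TAC Veh as a sample of operated mice.

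A cell that enters the cycle makes D-type cyclins, which with CDK4 and CDK6 release E2F transcription factors from the retinoblastoma protein. E2F then switches on the genes of DNA synthesis, and in G2 the MuvB and FOXM1 complexes switch on the genes of mitosis, while the CDK inhibitors p21, p27 and p57 hold the cycle back. Most adult cardiomyocytes have left the cycle, whereas fibroblasts, endothelial cells and macrophages of the heart can divide. Because whole tissue was sequenced, a change in the number of dividing cells and a change in the RNA per cell cannot be told apart.

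Values are counts scaled to a common library total (CPM), and those of single libraries are listed in the order S5, S6, S13, S19, S20 for Sham Veh, S4, S14, S15 for Sham 29P and S2, S12, S16 for TAC Veh. Estimated depth was 14.2 to 23.8 M reads, and the mitochondrial share of the CPM was 29.1 to 40.0% in Sham and 23.6 to 29.4% in TAC libraries. The atrial light chain gene Myl7 stood at 895 CPM in S19, 723 in S20 and 335 in S18 and did not exceed 1 CPM in the other 14 libraries, so counts that rest on those 3 libraries are also given without them. Within the groups, S3 was the highest TAC 29P library for 41 of the 52 genes, and S12 was the lowest TAC Veh library for 43. The plot of group levels by library shows both. How often S3 and S12 held these places over all genes was not counted, so neither count shows a trait particular to the 52 genes.

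**Figure D1:**
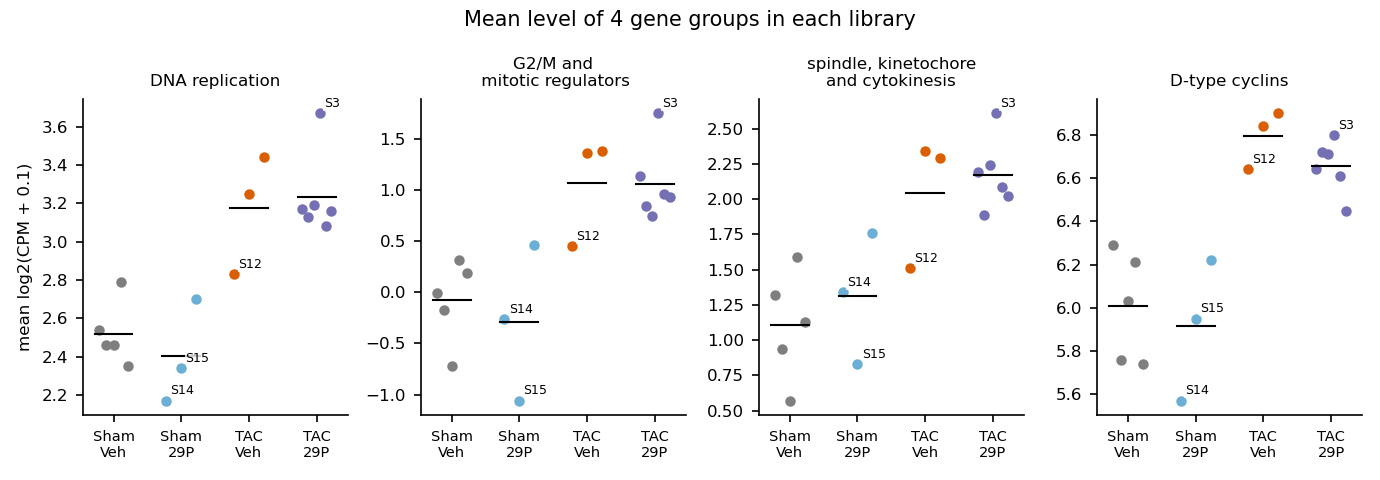
Mean log2(CPM + 0.1) over the members of 4 gene groups in each library (points), with the mean of each group of mice (line). S3 lay highest of the TAC 29P libraries in all 4 panels, S12 lowest of the TAC Veh libraries, and S14 or S15 lowest of the Sham 29P libraries.

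The order of the levels was read per length, as CPM per kilobase of exon, since CPM alone favours long transcripts. In Sham Veh the highest levels were those of Ccnd1 (15.5 ± 3.98 SD), Ccnd2 (12.1 ± 1.35), Pcna (11.2 ± 1.60), Cdkn1c (10 ± 1.74), Cdkn1a (8.84 ± 8.24) and Cdkn1b (8.07 ± 0.299), and neighbours in this order differed by less than the larger SD of the pair. The D-type cyclins, the CDK inhibitors and Pcna thus stood above the genes of mitosis, which closed the order with Ccnb1 (0.118 ± 0.0544) and Bub1 (0.107 ± 0.0698). By plain CPM in Sham Veh, 11 of the 52 genes averaged under 1, 22 between 1 and 5, and 19 had 5 or more. Only Bub1, in S15, had a library at 0.

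The promoters of 41 of the 52 genes are in the RefSeq promoter table for GRCm38.p6, 5 of them with 2 windows, each running from 250 bases before the start to 50 after it. They were searched on both strands for the CHR element of mitotic genes (TTNGAA with T or C at N), for the CCAAT box, and for the E2F site TTNNCGC with C or G at each N. A CHR match was in 22 of the 41 genes (53.7%), against 21.7% of all 27025 genes of the table, and CCAAT was in 32 (78.0%) against 41.1%. Both were present in 21 (51.2%) against 8.6%, and an E2F match was in 11 (26.8%) against 10.9%. Among the roles, CHR matches were in 10 of 13 G2/M regulators, 7 of 9 spindle genes and 2 of 10 replication genes, and E2F matches in 6 of the 10 replication genes. These letters say nothing of whether a factor was bound. Windows of 4 genes that the results turn on are printed with the matches in capitals, a mitotic kinase, a mitotic cyclin, a replication helicase subunit, and Cenpf, which did not follow the other spindle genes. All lie on the minus strand and read 5′ to 3′, at chr10:69352863-69353162 (Cdk1), chr9:70421505-70421804 (Ccnb2), chr1:128359656-128359955 (Mcm6) and chr1:189688037-189688336 (Cenpf).
Cdk1: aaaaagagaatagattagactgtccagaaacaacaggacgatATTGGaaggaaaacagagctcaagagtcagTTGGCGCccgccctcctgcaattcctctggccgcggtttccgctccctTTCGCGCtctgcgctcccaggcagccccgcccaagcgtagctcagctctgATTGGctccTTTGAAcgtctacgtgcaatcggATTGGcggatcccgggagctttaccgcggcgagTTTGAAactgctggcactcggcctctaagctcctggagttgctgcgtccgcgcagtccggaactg
Ccnb2: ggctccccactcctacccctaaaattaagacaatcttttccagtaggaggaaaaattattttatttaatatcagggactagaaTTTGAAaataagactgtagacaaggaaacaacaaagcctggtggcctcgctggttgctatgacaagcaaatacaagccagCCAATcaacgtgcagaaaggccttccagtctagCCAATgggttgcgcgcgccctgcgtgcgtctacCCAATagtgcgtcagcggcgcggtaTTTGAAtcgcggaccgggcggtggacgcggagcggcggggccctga
Mcm6: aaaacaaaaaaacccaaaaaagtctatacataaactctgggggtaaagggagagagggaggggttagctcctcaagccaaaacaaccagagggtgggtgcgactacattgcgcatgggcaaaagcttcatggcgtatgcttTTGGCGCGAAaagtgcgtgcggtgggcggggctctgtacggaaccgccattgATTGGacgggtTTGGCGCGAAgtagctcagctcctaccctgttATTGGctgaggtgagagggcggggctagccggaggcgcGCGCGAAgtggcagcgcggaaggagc
Cenpf: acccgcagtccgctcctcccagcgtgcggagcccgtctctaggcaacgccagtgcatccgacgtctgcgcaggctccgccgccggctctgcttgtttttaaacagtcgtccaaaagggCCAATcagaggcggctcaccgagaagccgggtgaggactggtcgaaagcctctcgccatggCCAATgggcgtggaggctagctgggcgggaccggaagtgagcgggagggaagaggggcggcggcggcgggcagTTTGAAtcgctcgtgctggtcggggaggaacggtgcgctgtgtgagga
Cdk1 held 2 CHR, 3 CCAAT and 2 E2F matches and Ccnb2 held 2 CHR and 3 CCAAT matches, while Mcm6 held 5 E2F matches, of which 4 overlap in pairs on opposite strands, and no CHR. Cenpf carried 1 CHR and 2 CCAAT matches, as many mitotic genes did.

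The effect of pressure overload was compared first in vehicle-treated mice, by limma on log2(CPM + 0.1) with Benjamini-Hochberg adjustment over the 16218 genes. TAC Veh was higher than Sham Veh in 26 of the 52 genes and lower in 0 (limma, adjusted p of 0.05 or less; 39 and 0 at an unadjusted p), where 23.6% of all genes tested were called higher and 1.98% lower. The median log2 difference was 0.94 over the 52 genes and 0.33 over all genes. In the 29P-treated mice, TAC was higher than Sham in 36 and lower in 1, Cenpf, against 31.5% and 1.15% of all genes, with a median of 1.04 against 0.36. The comparisons used different mice but 1 common estimate of the spread. They called 23 genes higher in both, 3 (Aurkb, Ccne1, Tk1) in vehicle only and 13 in 29P only, and 13 were called higher in neither, which does not show that the effects differed. How many of all genes were called higher in both was not counted.

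Because the median of all genes moved up with TAC, the libraries were also scaled by TMM factors, which took that median from 0.33 to 0.01 in the vehicle comparison and from 0.36 to 0.01 in the 29P comparison. Relative to this shift, 5 of the 52 genes were higher in TAC Veh (Ccnd2, Racgap1, Rrm2, Ube2c and Nusap1) and 0 lower, against 4.45% and 5.69% of all genes (722 higher and 923 lower). In 29P-treated mice 13 were higher (E2f1, Cdca8, Top2a, Ube2c, Mcm6, Racgap1, Mcm3, Mcm5, Bub1b, Ccnd2, Ccnb2, Tyms and Cdca3) and 3 lower (Cenpf, Cdkn1c and Cdkn1b), against 5.89% and 5.38% (955 and 873). The other genes called higher on CPM were not called under TMM scaling, also where this is not repeated below. The median of the 52 genes stayed at 0.62 and 0.69, and 44 of the 52 log2 differences were above 0 in each comparison. With the 3 libraries rich in Myl7 left out, 6 genes were higher in TAC Veh (Ccnd2, Racgap1, Rrm2, Nusap1, Ccne1 and Ube2c) and 38 in TAC 29P. The other genes called in vehicle mice were lost without these libraries, also where this is not repeated below. Leaving out S2 alone lowered the vehicle count to 4, S16 to 10, S19 to 16, and S6 or S20 to 17. Leaving out S14 lowered the 29P count to 13 and S15 to 19, and without S14 Cenpf was not called (limma adjusted p = 0.0587). For these fits with libraries left out, the share of all genes called is not given. The counts therefore do not show a loss of calls particular to the 52 genes. S14 had the lowest depth (14.2 M reads), the highest mitochondrial share (40.0%) and the most genes at 0 (3567, next 2754 in S6) of the 17 libraries, and their part in the 29P comparisons was not tested.

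**Figure D2:**
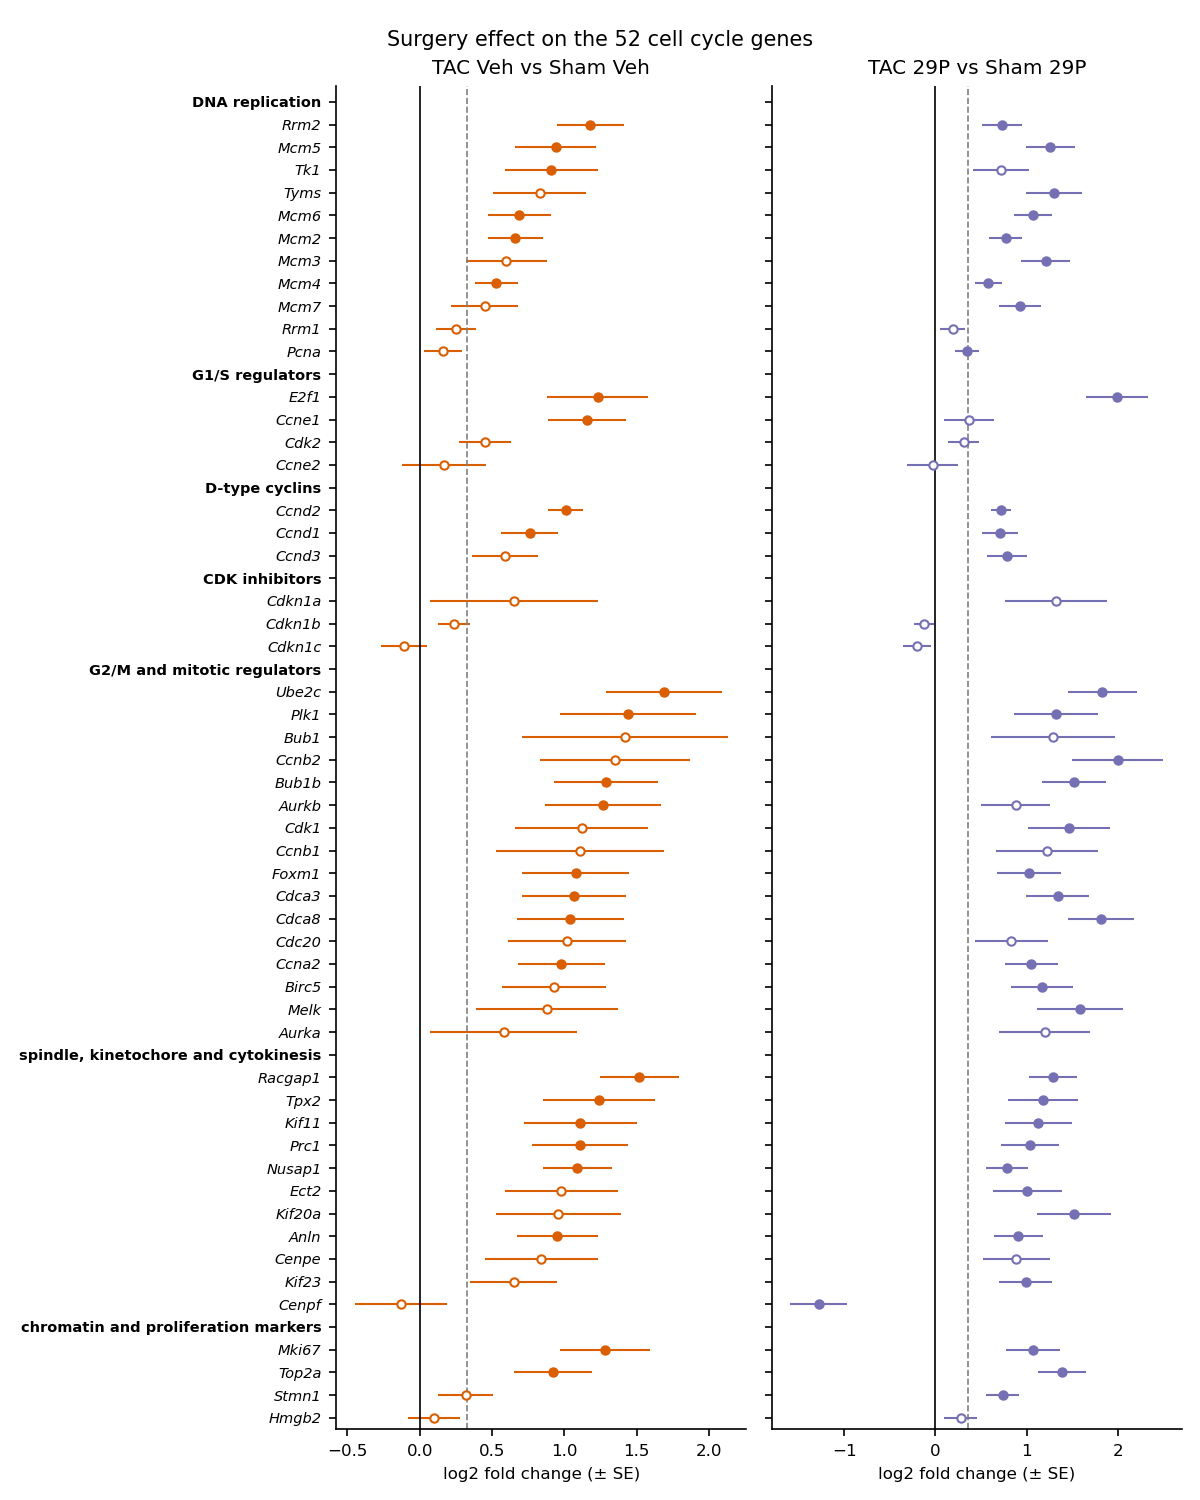
Log2 fold change of each of the 52 genes with its SE, grouped by role, for TAC Veh against Sham Veh (left) and TAC 29P against Sham 29P (right), with filled points at an adjusted p of 0.05 or less and dashed lines at the median of all genes tested (0.33 and 0.36). Most genes of mitosis lie near 1, the CDK inhibitors Cdkn1b and Cdkn1c near 0, and Cenpf at -1.28 on the right.

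Among the DNA replication genes, 6 of 11 were higher in TAC Veh (median log2 difference 0.66) and 9 of 11 in TAC 29P (0.77). Rrm2, the regulated subunit of ribonucleotide reductase, was at 2.82, 1.79, 1.52, 1.83 and 1.85 CPM in Sham Veh and at 4.99, 3.47 and 5.22 in TAC Veh. All 3 TAC Veh libraries exceeded every Sham Veh library, and the log2 fold change was 1.18 ± 0.23 SE (limma adjusted p = 0.00341), a call that held with each library left out in turn. Its level under 29P was 2.26, 2.40 and 2.64 CPM in Sham and 3.27 to 5.73 in TAC (median 3.81), also without overlap (0.73 ± 0.22, limma adjusted p = 0.0223, lost without S14, with the animal run as a covariate and under TMM scaling).

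The Mcm genes encode the MCM2-7 helicase that opens the replication origins. Mcm2 was at 6.77, 4.43, 5.51, 5.0 and 5.0 CPM in Sham Veh and at 8.53, 9.0 and 7.73 in TAC Veh, and at 6.83, 5.08 and 4.05 in Sham 29P and 7.43 to 11.7 in TAC 29P (median 8.49). TAC and Sham libraries did not overlap under either treatment, with log2 fold changes of 0.66 ± 0.19 (limma adjusted p = 0.0197, lost without S2 or S12) and 0.77 ± 0.18 (0.00755). Neither call of Mcm2 held under TMM scaling (limma adjusted p = 0.21 and 0.104). That in 29P mice was also lost with the animal run as a covariate (0.0712). Mcm6 was at 12.8, 9.35, 12.2, 10.3 and 8.64 CPM in Sham Veh and at 22.5, 12.7 and 17.2 in TAC Veh, where S12 lay within the Sham Veh range (0.69 ± 0.22, limma adjusted p = 0.0287, lost without any of S2, S6, S16, S19 and S20). In the 29P mice Mcm6 rose from 10.9, 5.85 and 9.15 CPM to between 14.8 and 23.9 (median 17.7) without overlap. That change was 1.07 ± 0.21 on the log2 scale (limma adjusted p = 0.00298), and it held with each library left out and under TMM scaling (0.71, limma adjusted p = 0.0154).

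Mcm5 was at 4.88, 2.95, 3.90, 3.31 and 2.90 CPM in Sham Veh and 9.48, 5.38 and 6.24 in TAC Veh, so the groups did not overlap (0.94 ± 0.28, limma adjusted p = 0.0250, lost without S2, S6 or S16). Under 29P it went from 5.03, 3.81 and 1.76 in Sham to 6.69 to 11.5 in TAC (median 7.52), again with no overlap (1.26 ± 0.27, limma adjusted p = 0.00510). This call was lost with the animal run as a covariate (limma adjusted p = 0.0627). Mcm4 was called in both comparisons, at log2 fold changes of 0.53 and 0.58. Mcm3 and Mcm7 passed only in the 29P mice, at 1.21 and 0.93, with 0.60 and 0.45 in vehicle.

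Pcna, the sliding clamp of the replicative polymerases, was at 24.3, 26.1, 23.6, 27.3 and 33.2 CPM in Sham Veh and at 32.0, 25.3 and 32.5 in TAC Veh. These groups overlapped (0.16 ± 0.13, limma adjusted p = 0.363). In 29P mice the Sham libraries were at 25.3, 21.7 and 23.8 and the TAC libraries at 27.2 to 34.6 (median 28.8). The log2 difference of 0.35 ± 0.13 (limma adjusted p = 0.0418) was close to the 0.36 of the median gene, was lost without any of S14, S15, S1, S3, S9 and S18, and was -0.01 under TMM scaling. Rrm1, the other subunit of ribonucleotide reductase, passed in neither comparison (0.25 and 0.19). For nucleotide supply, thymidine kinase gene Tk1 passed in vehicle mice (0.91, limma adjusted p = 0.0455) and thymidylate synthase gene Tyms in 29P mice (1.30, limma adjusted p = 0.00792).

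**Figure D3:**
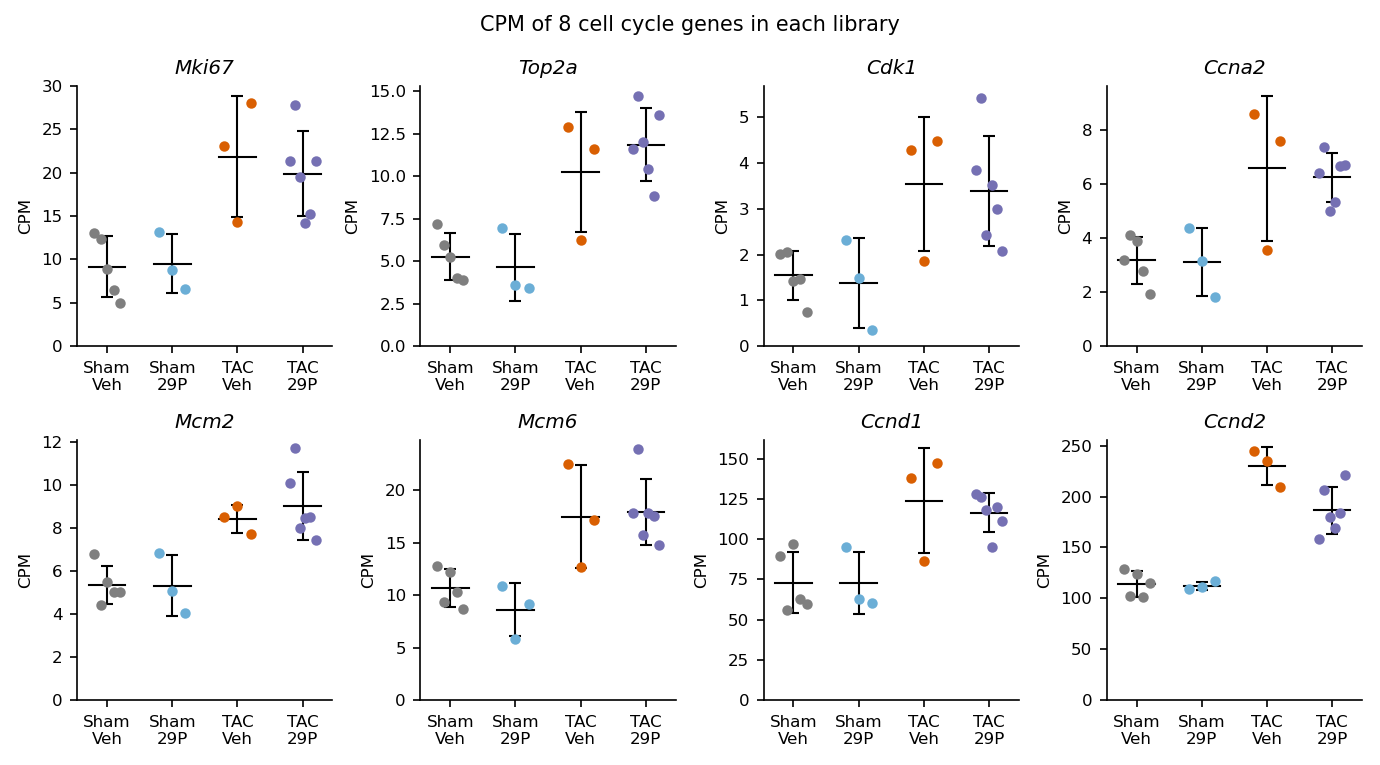
CPM of Mki67, Top2a, Cdk1, Ccna2, Mcm2, Mcm6, Ccnd1 and Ccnd2 in each library (points), with the mean and SD of each group (black), on axes that start at 0. TAC libraries lie above most Sham libraries, the lowest TAC Veh point is S12 in most panels, and the Sham 29P points of Ccnd2 lie at 109 to 117 CPM.

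Among the G1/S regulators, 2 of 4 were higher in TAC Veh and 1 of 4 in TAC 29P. E2f1, the transcription factor that activates replication genes, was at 1.35, 0.805, 1.14, 1.07 and 0.849 CPM in Sham Veh and at 3.29, 2.15 and 2.29 in TAC Veh. No Sham Veh library reached a TAC Veh library (1.23 ± 0.35, limma adjusted p = 0.0195, lost without S2 and under TMM scaling at 0.0698). E2f1 had 1.20, 0.211 and 0.528 CPM in Sham 29P and 1.74 to 3.11 in TAC 29P (median 2.55), a log2 fold change of 1.99 ± 0.34 (limma adjusted p = 0.00160) that held with each library left out. Ccne1, which encodes cyclin E1, the partner of CDK2 at the start of S phase, was at 0.799, 0.850, 0.856, 0.938 and 0.50 CPM in Sham Veh and at 1.70, 1.91 and 1.97 in TAC Veh. These groups were well apart (1.16 ± 0.27, limma adjusted p = 0.00859, held with each library left out but not under TMM scaling at 0.0755). In 29P mice Ccne1 overlapped between Sham (0.692, 1.34 and 0.763) and TAC (0.921 to 1.58, median 1.13), with a log2 difference of 0.37 ± 0.27 (limma adjusted p = 0.285). The log2 differences of Cdk2 were 0.45 and 0.31 and those of Ccne2, the gene of cyclin E2, were 0.17 and -0.03, none of which passed the adjusted threshold.

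The D-type cyclins couple growth signals to the cycle, and 2 of 3 were higher in TAC Veh and all 3 in TAC 29P. Ccnd2 had the smallest p of the 52 genes in both surgery comparisons. It was at 129, 102, 124, 101 and 115 CPM in Sham Veh and at 245, 235 and 209 in TAC Veh, a 2.01-fold difference (log2 1.01 ± 0.12, limma adjusted p = 1.38e-04) with a wide gap between the groups. Under 29P the levels were 109, 111 and 117 in Sham and 158 to 221 in TAC (median 182), again without overlap (0.72 ± 0.11, limma adjusted p = 0.00111). Both calls held with each library left out and under TMM scaling, where the differences were 0.68 and 0.35.

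Ccnd1 was at 89.6, 56.1, 96.8, 62.9 and 59.6 CPM in Sham Veh and at 138, 86.7 and 147 in TAC Veh. S12 lay within the Sham Veh range (0.76 ± 0.20, limma adjusted p = 0.0154), and the call was lost without S2 or S16. In Sham 29P it was at 94.9, 62.5 and 60.3 and in TAC 29P at 95 to 128 (median 119), so that S4 and the lowest TAC library were nearly level (0.71 ± 0.20, limma adjusted p = 0.0159, lost without S14 or S15). Of its exonic bases, 23.4% are overlapped on the other strand by LTO1, and the strand setting of the counting was not stated. Ccnd3 passed in 29P mice (0.79, limma adjusted p = 0.0152) and not in vehicle mice (0.59, limma adjusted p = 0.0634).

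None of the 3 CDK inhibitors passed the adjusted threshold in either surgery comparison on CPM with all libraries. Cdkn1a, which encodes p21 and is induced by p53, varied widely within groups. It was at 17.1, 17.2, 9.36, 31.5 and 81.8 CPM in Sham Veh and at 37.4, 18.4 and 73.0 in TAC Veh. The highest of these 8 values was the Sham Veh library S20, 1 of the libraries rich in Myl7, and the log2 difference was 0.65 ± 0.58 (limma adjusted p = 0.397) with it and 1.39 (0.0781) without S18, S19 and S20. In 29P mice Cdkn1a was at 21.8, 4.58 and 21.3 in Sham and 24.0 to 40.2 in TAC (median 34.9), which did not overlap (1.32 ± 0.56, limma adjusted p = 0.0766). Without S18, S19 and S20 it passed (1.32, limma adjusted p = 0.0442). Exact permutation gave 0.0119, as low as 6 against 3 libraries can reach, a value shared by Mki67, Ccnd2 and other genes without overlap in this comparison.

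Cdkn1b, which encodes p27, was at 37.7, 36.0, 34.7, 38.1 and 37.0 CPM in Sham Veh and 39.7, 46.6 and 44.4 in TAC Veh. The groups did not overlap, but the log2 difference of 0.24 ± 0.11 was below the 0.33 of the median gene (limma adjusted p = 0.109) and turned to -0.09 under TMM scaling. In TAC 29P it was at 38.0 to 47.9 (median 41.4), against 40.8, 55.4 and 43.1 in Sham 29P, with overlap (-0.12 ± 0.11, limma adjusted p = 0.409). Cdkn1c, which encodes the imprinted inhibitor p57, was at 15.9, 19.6, 25.7, 19.7 and 20.9 in Sham Veh and 17.4, 20.1 and 18.5 in TAC Veh, fully within the Sham range (-0.11 ± 0.16, limma adjusted p = 0.599). In 29P mice it was at 18, 14.6 and 19.9 in Sham and 11.8 to 17.9 in TAC (median 14.9), with overlap (-0.20 ± 0.15, limma adjusted p = 0.317). Under TMM scaling the 29P differences of Cdkn1b (-0.48) and Cdkn1c (-0.57) passed, at limma adjusted p = 0.0334 and 0.0304. Of the Cdkn1c exons, 30.7% are overlapped on the other strand by Gm44732.

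Of the 16 G2/M and mitotic regulators, 8 were higher in TAC Veh (median log2 difference 1.09) and 11 in TAC 29P (1.31), and all 16 differences were above 0 in both. Cdk1, the kinase that starts mitosis, was at 2.02, 2.06, 1.43, 1.47 and 0.749 CPM in Sham Veh and at 4.29, 1.86 and 4.48 in TAC Veh. S2 and S16 stood above every Sham Veh library and S12 did not (1.12 ± 0.46, limma adjusted p = 0.0766). In 29P mice Cdk1 was at 2.31, 1.48 and 0.352 in Sham and at 2.08 to 5.43 in TAC (median 3.26), with only the lowest TAC library below S4 (1.47 ± 0.45, limma adjusted p = 0.0220, lost without S14 or S15).

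Ccna2, which encodes cyclin A2 of S phase and G2, was at 3.17, 4.11, 3.87, 2.78 and 1.93 CPM in Sham Veh and at 8.59, 3.54 and 7.59 in TAC Veh. Again S12 fell within the Sham Veh range (0.98 ± 0.30, limma adjusted p = 0.0276, lost without any of S2, S16, S19 and S20). In 29P mice it went from 4.36, 3.16 and 1.82 to 5.01 to 7.35 (median 6.52) without overlap (1.05 ± 0.29, limma adjusted p = 0.0157, lost without S14 or S15). The B cyclins are the mitotic partners of CDK1. Ccnb1 was at 0.614, 0.658, 0.428, 0.667 and 0.127 CPM in Sham Veh, 1.12, 0.659 and 1.68 in TAC Veh, 0.884, 1.06 and 0.0587 in Sham 29P and 0.791 to 2.65 in TAC 29P (median 1.10). Sham and TAC overlapped under both treatments, and neither difference passed (1.11 ± 0.58 and 1.22 ± 0.56, limma adjusted p = 0.152 and 0.0985). Ccnb2 passed in 29P mice alone (2.0, limma adjusted p = 0.010) and stood at 1.35 (0.0628) in vehicle mice.

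Ube2c, the ubiquitin-conjugating enzyme of the anaphase-promoting complex, was at 1.30, 0.716, 0.665, 0.715 and 0.649 CPM in Sham Veh and at 3.39, 1.76 and 3.47 in TAC Veh. The groups did not overlap, and its 1.69 ± 0.40 on the log2 scale was the largest vehicle difference of the 52 genes (limma adjusted p = 0.00827, lost without S2). Under 29P, Ube2c was at 1.29, 0.423 and 0.235 in Sham and at 1.70 to 3.79 in TAC (median 1.93), also apart (1.83 ± 0.38, limma adjusted p = 0.00422). The 29P call was lost with the animal run as a covariate (limma adjusted p = 0.0608). Tnnc2 overlaps 22.8% of the exonic bases of Ube2c on the other strand.

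Cdca8 encodes borealin of the chromosomal passenger complex. It was at 0.841, 1.21, 1.09, 0.670 and 0.450 CPM in Sham Veh and at 2.24, 0.978 and 2.51 in TAC Veh, with S12 inside the Sham range (1.04 ± 0.37, limma adjusted p = 0.0452, lost with any of 9 libraries left out, S2, S16, S5, S19 and S20 among them). Cdca8 went under 29P from 0.415, 0.211 and 0.528 to 1.09 to 2.64 (median 1.44) with no overlap (1.82 ± 0.36, limma adjusted p = 0.00312), and this call held with each library left out. Its partners Birc5 (survivin) and Aurkb passed in 29P mice (1.17) and in vehicle mice (1.27), respectively. The kinase gene Plk1, the checkpoint gene Bub1b, the mitotic transcription factor gene Foxm1 and Cdca3 passed in both, between 1.07 and 1.44 in vehicle mice and between 1.03 and 1.52 in 29P mice. Melk passed in 29P mice (1.59), while Aurka, Bub1 and Cdc20 passed in neither.

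Of the 11 spindle, kinetochore and cytokinesis genes, 6 were higher in TAC Veh (median 0.98), and 9 were higher and 1 lower in TAC 29P (1.01). Racgap1, a subunit of the centralspindlin complex that places the cleavage furrow, was at 2.23, 1.25, 1.47, 1.79 and 1.15 CPM in Sham Veh and at 4.94, 3.18 and 6.08 in TAC Veh. No libraries overlapped, and the 2.86-fold difference (log2 1.52 ± 0.27, limma adjusted p = 0.00188) held with each library left out and under TMM scaling (1.20). Racgap1 under 29P was at 2.40, 1.76 and 1.35 in Sham and 3.49 to 6.47 in TAC (median 4.54), again apart (1.29 ± 0.26, limma adjusted p = 0.00348). Nusap1, a spindle microtubule protein, was at 2.78, 1.48, 1.76, 1.83 and 1.30 in Sham Veh and 4.14, 3.13 and 4.48 in TAC Veh. All 3 TAC Veh values were above all Sham Veh values (1.09 ± 0.24, limma adjusted p = 0.00641, lost without S2), and in 29P mice the difference was 0.79 (0.0195, lost without S15, with the run and under TMM scaling). The kinesin gene Kif11, Tpx2, Prc1 and Anln also passed in both comparisons, between 0.95 and 1.24 in vehicle mice and between 0.91 and 1.18 in 29P mice. Kif20a, Kif23 and the RhoA exchange factor gene Ect2 passed in 29P mice alone (1.52, 0.99 and 1.01). Cdc23 overlaps 29.3% of Kif20a on the other strand. Cenpe passed in neither (0.84 and 0.89).

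Cenpf, which encodes a large kinetochore and nuclear matrix protein, followed another course. It was at 15.4, 9.67, 19.7, 6.17 and 6.89 CPM in Sham Veh, 8.68, 9.05 and 11.1 in TAC Veh, 22.8, 33.1 and 30.8 in Sham 29P and 8.62 to 19.8 in TAC 29P (median 10.9). The 3 Sham 29P libraries were above all 14 others, which overlapped. TAC and Sham differed by -0.13 ± 0.32 in vehicle mice (limma adjusted p = 0.774) and by -1.28 ± 0.31 in 29P mice (0.00810). No other gene of the 52 was called lower after TAC on CPM.

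Of the 4 chromatin and proliferation markers, 2 were higher in TAC Veh and 3 in TAC 29P. Mki67, which encodes the Ki-67 protein of cycling cells, was at 13, 12.4, 8.94, 6.43 and 5.0 CPM in Sham Veh and at 23.1, 14.3 and 28.1 in TAC Veh. Every TAC Veh library exceeded every Sham Veh library, S12 by the least (1.28 ± 0.31, limma adjusted p = 0.00986, lost without S2 at 0.0677). That call was also lost under TMM scaling (limma adjusted p = 0.0565) and without S18, S19 and S20 (0.0538). In 29P mice Mki67 was at 13.2, 8.74 and 6.63 in Sham and 14.2 to 27.8 in TAC (median 20.4), with no overlap (1.07 ± 0.30, limma adjusted p = 0.0159, lost without S14 or S15). It was also lost under TMM scaling (limma adjusted p = 0.123) and with the animal run as a covariate (0.0885). Top2a, the topoisomerase that untangles sister chromatids, was at 7.19, 5.95, 5.23, 4.02 and 3.90 in Sham Veh and 12.9, 6.26 and 11.6 in TAC Veh, with S12 below S5 (0.92 ± 0.27, limma adjusted p = 0.0230, lost without S2, S16 or S19). Top2a rose under 29P from 6.92, 3.59 and 3.40 to 8.80 to 14.7 (median 11.8) without overlap. That difference of 1.39 ± 0.26 (limma adjusted p = 0.00278) held with each library left out and under TMM scaling (1.03). Stmn1, a microtubule-destabilising protein gene, passed in 29P mice (0.74), and Hmgb2, of a chromatin protein with roles outside the cycle, passed in neither (0.10 and 0.28).

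The library labels carry a number, taken here as that of the animal, and neighbouring numbers were grouped here into 4 runs. Each run held both TAC and Sham mice, but treatments were mixed within runs. Of the TAC 29P libraries, 5 were in the run of S1 to S11 and 1 in that of S18 to S20. The Sham 29P libraries were spread 1 each over the other runs and that of S1 to S11, except the run of S18 to S20. So were the TAC Veh libraries. Run and group can thus hardly be told apart when TAC 29P is compared with Sham 29P or with TAC Veh. The run of S15 and S16 set 1 TAC Veh against 1 Sham 29P library. That of S18 to S20, all rich in Myl7, set 1 TAC 29P against 2 Sham Veh libraries. Differences within runs are thus not of surgery alone. Within the run of S1 to S11 the mean of the TAC libraries was above that of the Sham libraries for 50 of the 52 genes (median log2 difference 0.76), within S12 to S14 for 45 (0.45), within S15 and S16 for 49 (1.60) and within S18 to S20 for 49 (1.11). The median over all genes was 0.31 to 0.36 in the 4 runs, and the share of all genes with TAC above Sham was not counted by run. Over all libraries, 13175 of the 16218 genes tested were above 0 in the vehicle comparison and 13586 in the 29P comparison. With the run as a covariate, 19 genes were higher in TAC Veh and 8 in TAC 29P, and Cenpf was not called. The 8 were Cdca8, Ccnd2, Mcm6, E2f1, Top2a, Mcm3, Racgap1 and Mcm7. All other genes called higher in 29P mice were lost with the run, also where this is not stated above. In vehicle mice Ccnd1 and Cdca8 were among those lost (limma adjusted p = 0.0502 and 0.167). The share of all genes called in that fit is not given.

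Other genes of the same processes were counted from lists that do not include the 52. Of 35 other replication genes tested, 11 were higher and 1 lower in TAC Veh and 17 higher in TAC 29P, where 23.6% and 31.5% of all genes were called higher, and the median differences were 0.48 and 0.57 against 0.33 and 0.36 over all genes. Timeless, of the replication fork protection complex, was at 1.01 and 0.94. Of 55 other mitosis genes, 27 were higher and 1 lower in TAC Veh and 32 higher in TAC 29P (medians 0.92 and 0.88). The phosphatase gene Cdc25b, whose product activates CDK1, was at 0.79 and 0.88. Of 22 other CDK, CDK inhibitor and E2F-RB genes, 9 were higher in each comparison and 1 lower in TAC 29P (medians 0.40 and 0.42), among them Cdk6 and E2f3 in vehicle (0.70 and 0.69) and Cdkn2c and Tfdp1 in 29P mice (0.74 and 0.44). Of 15 other p53-responsive genes, 10 were higher in TAC Veh and 8 in TAC 29P (medians 0.71 and 0.63). Phlda3 stood at 1.51 and 1.86, while Cdkn1a, which p53 also induces, did not pass on CPM with all libraries.

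Markers of other cell types were summed in each library. The summed level of 10 macrophage and monocyte markers was 339 to 396 CPM in Sham Veh, 222 to 450 in Sham 29P, 514 to 812 in TAC Veh and 491 to 668 in TAC 29P, and all 10 were called higher in both comparisons. That of 6 fibroblast markers was 724 to 1151, 647 to 799, 1480 to 2115 and up to 2101, with 5 and 6 called higher, and the lowest TAC 29P sum, that of S1, lay inside the Sham Veh range. That of 6 activated fibroblast markers was 165 to 310, 132 to 213, 606 to 1472 and 306 to 1424, with 5 called higher in each. Endothelial markers summed to 513 to 907, 436 to 850, 879 to 1146 and 774 to 1145 (3 and 6 of 6 called higher). Pericyte and smooth muscle markers summed to 990 to 1324, 1152 to 1375, 1332 to 1655 and 1342 to 1581 (3 of 6 in each).

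Lymphocyte markers were low, at 0.894 to 3.71, 0.775 to 1.82, 3.36 to 7.83 and 2.71 to 9.56 CPM for 6 genes, with Cd3e, Cd3g, Cd8a and Cd79a at 0 in some libraries and 2 and 3 of 4 tested called higher. Neutrophil markers summed to at most 17.6 CPM, S100a9, Retnlg and Mmp8 were at 0 in some libraries, and 0 of 2 tested were called. Of 5 erythroid markers, 5 were called higher in TAC Veh and 0 in TAC 29P, at sums of 1018 to 2463, 562 to 1680, 3082 to 4992 and 1036 to 4151. The 6 cardiomyocyte markers summed to 28012 to 38165, 30985 to 41805, 25246 to 30221 and 24821 to 35495, the highest sums of these cell type lists, and 1 was called lower in each comparison (Tnni3 and Pln). The activated fibroblast gene Postn was at 1030 CPM in S3 and 173 to 581 in the other TAC 29P libraries, and at 411 in S12 against 1153 and 970 in the other TAC Veh libraries. The sums set S3 less apart. S18 had 2094 CPM of fibroblast markers against 2101 in S3, and 1014 of activated fibroblast markers against 1424. S18 had the lowest mean log2 level of the G2/M and mitotic regulators in TAC 29P (0.75, against 1.75 in S3). For the DNA replication genes (3.19, against 3.67 in S3) and the spindle, kinetochore and cytokinesis genes (2.24 against 2.61), S18 was the highest after S3. The part of these cell types in the levels of the 52 genes was not tested.

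The effect of 29P was compared within each surgery group. TAC 29P and TAC Veh differed at an adjusted p of 0.05 or less in 0 of the 52 genes and in 0 of all genes. At an unadjusted p of 0.05, the threshold stated for the study, 0 of the 52 were higher and 2 lower under 29P in TAC mice, against 0.950% and 1.11% of all genes (154 and 180). The median log2 difference of the 52 genes was 0.01. Mki67 differed by -0.12 ± 0.30, Top2a by 0.26 ± 0.26, Cdk1 by -0.03 ± 0.45, Ccna2 by 0.01 ± 0.29, Pcna by 0.01 ± 0.13 and Mcm2 by 0.09 ± 0.18 on the log2 scale. TAC Veh libraries enter both this comparison and that with Sham Veh, and TAC 29P libraries both this and that with Sham 29P.

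Both genes past the unadjusted threshold are G1 cyclins, and neither passed after adjustment (limma adjusted p = 1.0). The other D- and E-type cyclin genes, Ccnd1, Ccnd3 and Ccne2, differed by -0.06 ± 0.20, -0.05 ± 0.22 and -0.02 ± 0.28. Ccnd2 was at 245, 235 and 209 CPM in TAC Veh and at 158 to 221 in TAC 29P (median 182). Of the 6 TAC 29P libraries, 5 lay below all TAC Veh libraries (log2 difference -0.31 ± 0.11, limma unadjusted p = 0.0140, exact permutation p = 0.0476), and without S2 the unadjusted p was 0.0683. Ccne1 was at 1.70, 1.91 and 1.97 CPM in TAC Veh and 0.921 to 1.58 in TAC 29P (median 1.13), with no overlap (-0.61 ± 0.27, limma unadjusted p = 0.0345, exact permutation p = 0.0357). The call of Ccne1 was lost without any of S12, S16, S1, S8 and S11 and under TMM scaling (limma unadjusted p = 0.0601). With the animal run as a covariate neither gene passed (0.0511 for Ccnd2 and 0.178 for Ccne1, limma unadjusted), and Ube2c did (-0.86, limma unadjusted p = 0.0494).

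**Figure D4:**
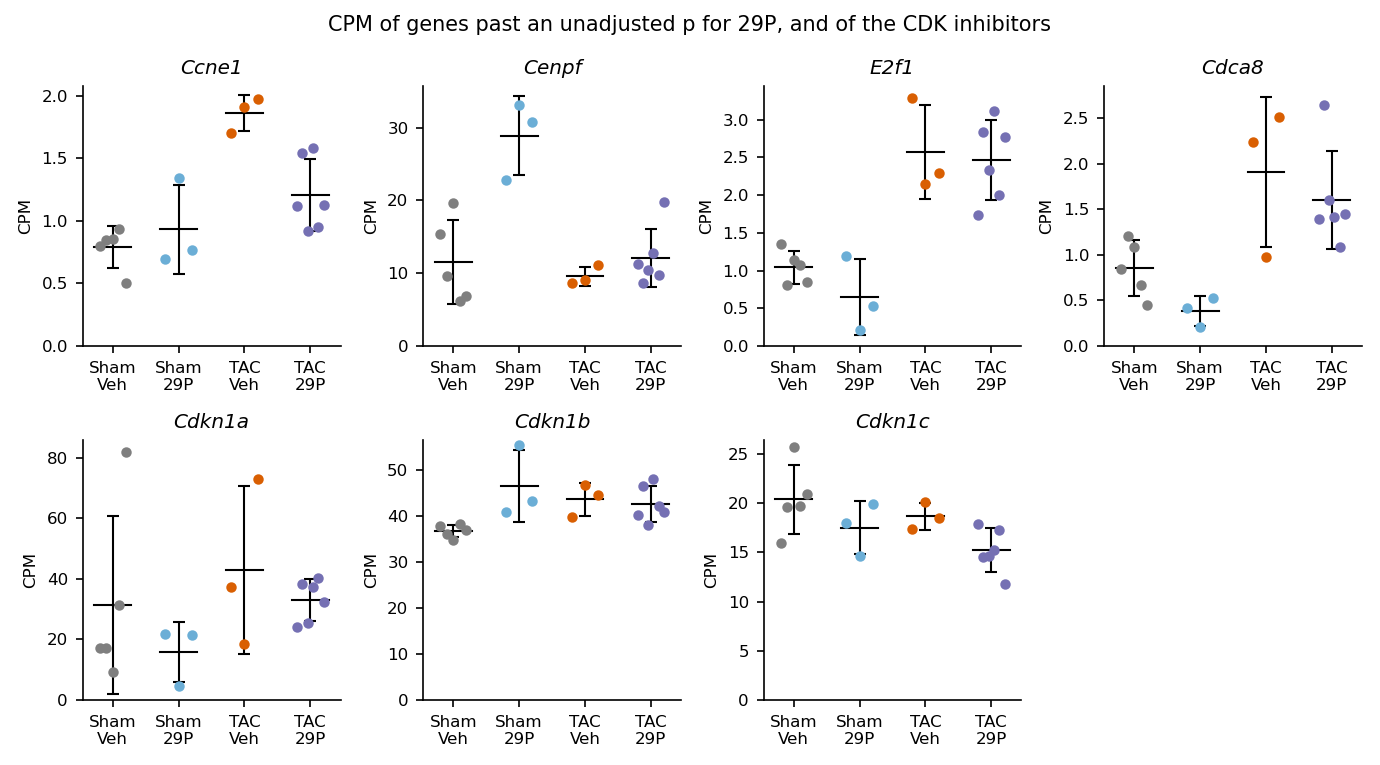
CPM of Ccne1, Cenpf, E2f1, Cdca8 and the CDK inhibitors Cdkn1a, Cdkn1b and Cdkn1c in each library (points), with the mean and SD of each group (black), on axes that start at 0. Cenpf at 22.8 to 33.1 and Cdkn1b at 40.8 to 55.4 CPM in Sham 29P lie above all Sham Veh libraries, and Ccne1 in TAC 29P lies below all TAC Veh libraries.

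Sham 29P and Sham Veh also differed at an adjusted p in 0 of the 52 genes and in 0 of all genes. At an unadjusted p, 2 of the 52 were higher and 2 lower in Sham 29P, against 1.57% and 5.15% of all genes (255 and 835). Cenpf, at 22.8, 33.1 and 30.8 CPM in Sham 29P, was above all 5 Sham Veh libraries, whose highest value was 19.7. The difference was 2.71-fold (log2 1.44 ± 0.32, limma unadjusted p = 2.67e-04, adjusted p = 0.715, exact permutation p = 0.0357), and its unadjusted p stayed at or below 0.00226 with each library left out. Without S18, S19 and S20 it was 0.99 (limma unadjusted p = 6.53e-04).

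Cdkn1b was at 40.8, 55.4 and 43.1 CPM in Sham 29P, above the 34.7 to 38.1 of all Sham Veh libraries (0.33 ± 0.11, limma unadjusted p = 0.00968, exact permutation p = 0.0179, as low as 3 against 5 can reach). S14 was the highest, and without it the difference was 0.19 (limma unadjusted p = 0.0977). Cdca8, at 0.415, 0.211 and 0.528 against 0.450 to 1.21, overlapped between the groups (-0.97 ± 0.37, limma unadjusted p = 0.0169, exact permutation p = 0.0536, 0.109 by limma without S14). E2f1, at 1.20, 0.211 and 0.528 against 0.805 to 1.35, overlapped through S4 (-0.83 ± 0.35, limma unadjusted p = 0.0286, exact permutation p = 0.125, lost without S5, S14 or S15).

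A test of whether 29P acted differently after TAC and after Sham (the surgery by treatment interaction) gave 0 of the 52 genes and 0 of all genes at an adjusted p. At an unadjusted p it gave 0 higher and 2 lower, against 1.92% and 0.937% of all genes (311 and 152). These were Cenpf (-1.15 ± 0.44, limma unadjusted p = 0.0180) and Cdkn1b (-0.36 ± 0.16, 0.0331). The interaction of Cenpf held with each library left out but was -0.39 (limma unadjusted p = 0.477) with the animal run as a covariate. That of Cdkn1b was lost without any of 6 libraries (S1, S8, S12, S13, S14 and S16). The surgery effects of Ccne1 in vehicle and 29P mice, 1.16 and 0.37, differed by -0.79 ± 0.38 (limma unadjusted p = 0.0521).

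Of the other mitosis genes and the other CDK and E2F-RB genes, the smallest p of the Sham comparison belonged to Cenpk, a kinetochore gene, and Chek1, which encodes a DNA damage checkpoint kinase. Cenpk was at 0.169, 0, 0.0951, 0.134 and 0.050 CPM in Sham Veh and at 0.553, 0.712 and 0.411 in Sham 29P, with no overlap (1.85 ± 0.48, limma unadjusted p = 0.00117). A read is worth 0.042 to 0.050 CPM in Sham Veh, so these Cenpk values are a few reads at most. No Sham Veh library reached the 0.5 CPM of the filter, which Cenpk passed through the other groups, and its differences depend on the constant of 0.1. Chek1 was at 0.757, 0.447, 0.618, 0.402 and 0.150 CPM in Sham Veh and at 1.11, 1.48 and 0.763 in Sham 29P, without overlap (1.15 ± 0.37, limma unadjusted p = 0.00646). In TAC Veh both were higher than in Sham Veh without overlap, at 0.489 to 0.960 CPM for Cenpk and 1.20 to 1.55 for Chek1, whereas Cenpf overlapped. Their interactions were -2.24 and -1.56 (limma unadjusted p = 0.00359 and 0.00775), neither of which passed an adjusted threshold.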

How the data were processed

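Messenger RNA of each heart was isolated on oligo-dT beads and made into libraries with NEBNext Ultra II reagents. Alignment by the authors used STAR 2.3.7 (Partek Flow, mm10), and the deposited values are CPM with a constant of 0.0001. The strand setting of the counting was not given in the sources used here, and 83.9 to 86.6% of low values were whole reads (within 0.1 of a read), so read counts were not restored and no count test was run. Depth was estimated from the step between low values.

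Genes with CPM of 0.5 or more in at least 3 libraries (16218, about 10.2 reads at median depth) were tested with limma 3.58.1 in R 4.3.3 on log2(CPM + 0.1), with 1 mean per group, a variance trend and Benjamini-Hochberg adjustment over all genes tested. A fold change is on the log2(CPM + 0.1) scale, which understates that of low genes. Exact two-sided permutation over libraries was run per gene and is printed for few. In the vehicle comparison it gave 0.0714 for Ccnd1, Ccna2, Cdca8 and Kif11, which limma called, and 0.0179 for Ccnd2 and Racgap1. Calls were at an adjusted p of 0.05 for surgery and were also counted at an unadjusted p of 0.05 for 29P. Neither litter nor day was given in the sources used here, and the 4 runs of neighbouring animal numbers served as a covariate in 1 alternative. Other alternatives changed the scaling, the constant, the filter, the groups fitted, the threshold and the libraries.

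Library values (for TAC 29P the range and median) are given for 12 genes (Mki67, Top2a, Cdk1, Ccnb1, Ccna2, Pcna, Mcm2, Ccnd1, Ccnd2, Cdkn1a, Cdkn1b and Cdkn1c), for up to 8 called genes of smallest p in each surgery comparison and for every gene past an unadjusted p for 29P or the interaction; other lists are named by their 2 smallest p, of which some are printed. The 52 genes and all lists were chosen with earlier results of these data known. The alternative without S18, S19 and S20 was chosen after seeing the data. Gene positions and exonic lengths are from GENCODE vM21, whose start and end all 52 genes share with the file, and promoters are from RefSeq. The model was tested on simulated data. Pcna, Tyms, Ccnd3, Ccnb1 and Ccnb2 have annotated pseudogenes, so their values are uncertain. How the counting split such reads is not given in the sources used here. Python 3.11.15 and matplotlib 3.10.9 were used for summaries and plots.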

Additional observations from a re-analysis of the deposited data

Results flagged for a closer look

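In S5 of the Sham Veh group, Rrm2 (2.82 CPM, next 1.85) and Ube2c (1.30 CPM, next 0.716) stood far above the other 4 libraries. In S3 of the TAC 29P group the same held for Mcm5 (11.5 CPM, next 7.81), Mcm6 (23.9, next 17.8), Cdca8 (2.64, next 1.60) and Ube2c (3.79, next 2.18). By Dixon's criterion over all 52 genes, an extreme library stood apart for 4 genes in Sham Veh (7.7%) and 8 in TAC 29P (15.4%). Chance marks about 1 in 20 for independent, normally distributed values, whereas the 52 genes share their libraries and were tested as CPM. The share over all genes was not counted, so these values do not show an excess. S3 was highest in 26 of the 27 mitotic, spindle and cytokinesis genes and S12 lowest of TAC Veh in 25 of them, and without S3 30 of the 52 genes were higher in TAC 29P. Neither the share of all genes called without S3 nor how often S3 and S12 were extreme over all genes is given.

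The effect of 29P differed between surgery groups at an unadjusted p for Cenpf (log2 difference of effects -1.15, limma unadjusted p = 0.0180) and Cdkn1b (-0.36, 0.0331). Neither passed the adjusted threshold.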

How the results depend on the processing

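In TAC Veh against Sham Veh, the count of 26 genes called higher became 5 with TMM or median-of-ratios factors, 10 with totals without the 16 mitochondrial genes and 6 without S18, S19 and S20. For TAC 29P against Sham 29P the 36 became 13 with TMM or median-of-ratios factors, 18 without mitochondrial genes and 8 with the animal run as a covariate, and the 1 called lower became 3 with either set of factors and 0 with the run. Pcna turned from 0.35 to -0.01 with TMM and with median-of-ratios factors in that comparison. In TAC 29P against TAC Veh the count of 2 lower genes became 1 with TMM, median-of-ratios or non-mitochondrial totals and 0 with an adjusted threshold. With the run it was also 1, but that gene was Ube2c, and neither of the 2 remained. In Sham 29P against Sham Veh the count of 2 higher genes became 0 with the adjusted threshold, and that of 2 lower became 0 with a constant of 1, 1 when only the groups compared were fitted and 0 with the adjusted threshold. The count of 2 interactions became 0 with the run, 1 without S18, S19 and S20 and 0 with the adjusted threshold. The cause of these changes was not tested. With TMM factors the share of all genes called higher also fell, from 23.6% to 4.45% in the vehicle surgery comparison. In the 29P surgery comparison it fell from 31.5% to 5.89%. For the other settings of the surgery comparisons this share is not given. The lower surgery counts therefore do not show a loss of calls particular to the cell cycle genes.

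With 1 library left out at a time, the higher calls ranged from 4 (without S2) to 30 in TAC Veh and from 13 (without S14) to 42 in TAC 29P, and the lower calls from 0 to 0 and from 0 to 1. For 29P in TAC mice they ranged from 0 to 0 higher and 1 to 2 lower, in Sham mice from 1 to 3 higher and from 0 (without S14) to 10 (without S4) lower, and for the interaction from 0 to 3 (without S4) and 1 to 3. Of 3053 alternative values of the 22 named genes, 2854 kept their side of the threshold (2724 with the same sign, and 130 with another sign and past it under neither setting), 163 fell short of it, 34 newly passed it and 2 reversed. No paired analysis was possible because the groups share no replicate numbers. Of the 52 genes, 11 averaged under 1 CPM in Sham Veh, where 0.5 CPM is about 10.2 reads.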
